A study of Mus musculus with 27 samples.

Results

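The enzymes that make bile acids from cholesterol and join them to taurine or glycine were followed in mouse liver and in liver organoids. The 10 genes were taken by symbol from each of the 3 deposited tables: Cyp7a1, Cyp7b1, Cyp8b1, Cyp27a1, Hsd3b7, Akr1d1, Amacr, Acox2, Slc27a5 and Baat. All 10 were listed in each table, among 25859 genes in the liver table and 27178 in each organoid table. RNA sequencing libraries numbered 27, in 9 groups of 3. Liver came from healthy mice, from mice with fibrosis induced by carbon tetrachloride (CCl4, which is toxic to hepatocytes), and from CCl4 mice treated with Sargassum japonica, a brown seaweed whose extract was also used on the organoids. A second table held organoids grown from livers of mice that got only the mineral oil in which CCl4 is dissolved, from livers of CCl4 mice, and from CCl4 mice with the extract added to the culture for 24 h. The third held organoids of healthy mice left untreated, exposed for 24 h to the fibrosis-driving cytokine TGF-β1, or exposed for 24 h to TGF-β1 before 24 h of extract. All organoids grew in Matrigel and were kept for 4 to 5 days in differentiation medium before any treatment. The labels do not say when organoids without the extract were harvested, so groups with and without it may also differ in time in culture. The labels give no strain, age, sex or dose, and do not say whether numbered libraries are separate mice or cultures, so the p-values below measure the spread between libraries, which may be technical.

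Bile acids are made in hepatocytes along a pair of routes. In the classic route Cyp7a1, the rate-limiting 7-alpha-hydroxylase, acts first on cholesterol, and Cyp8b1 adds the 12-alpha-hydroxyl group that turns the product into cholic acid. In the alternative route Cyp27a1, a mitochondrial sterol 27-hydroxylase that also starts side-chain oxidation, comes first and Cyp7b1, an oxysterol 7-alpha-hydroxylase, follows. Both routes share Hsd3b7 and Akr1d1, which rework the steroid ring, Amacr and Acox2, which work in peroxisomes on the side chain, and Slc27a5 and Baat, which activate the bile acid with coenzyme A and then conjugate it. Bile acids hold back their own synthesis through the receptor Nr1h4 (FXR), its target Nr0b2 (SHP) and the intestinal hormone Fgf15.

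The libraries held 44.5 to 64.8 M (mega) reads. Levels are CPM, that is, reads for each M of effective library size as the authors set it, with n = 3 libraries a group, and changes as log2 fold changes ± SE. A gene is said to rise or fall at an adjusted p under 0.05 from limma over all genes tested. In liver each of 17 hepatocyte markers exceeded 1 CPM in mean level, and their sum was 137000 to 184000 CPM. In the organoids these hepatocyte markers summed to 782 to 3060 CPM with mineral oil, 2840 to 6390 CPM with CCl4, 4630 to 5000 CPM with CCl4 and extract, and 6.07 to 155 CPM in the TGF-β1 table, with at most 8 of the 17 over 1 CPM in any group. Markers of bile duct cells and progenitors summed to 7690 to 13400 CPM in the organoids. Along the first principal component, organoid mineral oil library 1 stood apart from the other libraries of its group, as did untreated library 3 and TGF-β1 plus extract library 3 from the remaining 7 of their table.

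In healthy liver all 10 enzymes were well read. Scaled by exon length, the mean level was highest for Slc27a5, at 497 ± 43.0 reads per kilobase and M (SD). Cyp27a1 followed at 306 ± 17.7, and then Hsd3b7 at 205 ± 20.9, Cyp8b1 at 192 ± 42.5 and Baat at 169 ± 9.91, 3 genes that neighbour each other within their spread. Akr1d1 at 77.1 ± 4.78, Acox2 at 76.3 ± 8.82, Cyp7b1 at 70.1 ± 6.12 and Cyp7a1 at 55.9 ± 44.0 also did not part beyond their spread. Amacr had the lowest mean, 41.1 ± 6.14, within the spread of Cyp7a1, which lay at 107 in healthy library 1 and below Amacr in libraries 2 and 3, at 30.6 and 30.5 against 39.0 and 48.0. On this scale the conjugation pair, Slc27a5 and Baat, stood above Cyp7a1 in each healthy library.

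CCl4 liver held less RNA of most of these enzymes than healthy liver. Of the 10 genes, 8 fell and none rose, where 25.5% of all 15037 genes tested were lower, 28.7% were higher and 54.2% differed in either direction. The median of the 10 log2 fold changes was -1.17, beside 0.002 over all genes tested. In bulk tissue, fewer hepatocytes and less RNA per hepatocyte cannot be told apart. The hepatocyte markers moved in the same comparison: 10 of 17 were lower and 1 higher, with a median of -0.44, and their sum was 137000 to 147000 CPM against 160000 to 184000 CPM. Of the stellate cell and myofibroblast markers, 9 of 10 rose, with sums of 1270 to 1760 CPM against 238 to 294 CPM. Markers of bile duct cells and progenitors rose in 8 of 9 cases, with a median of 1.88, and macrophage markers in 8 of 10, to 1100 to 1300 CPM from 465 to 650 CPM. The bile duct sum was 68.7 to 95.7 CPM in healthy liver and 303, 275 and 520 CPM in the CCl4 libraries. CCl4 library 3, the highest in it, was the lowest of its group for each of the 10 enzymes, and its Krt19 level, that of a bile duct keratin, was 9.44 CPM against 1.49 and 1.63 CPM. The part of these cell types in the fall of the enzymes was not tested.

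**Figure D1:**
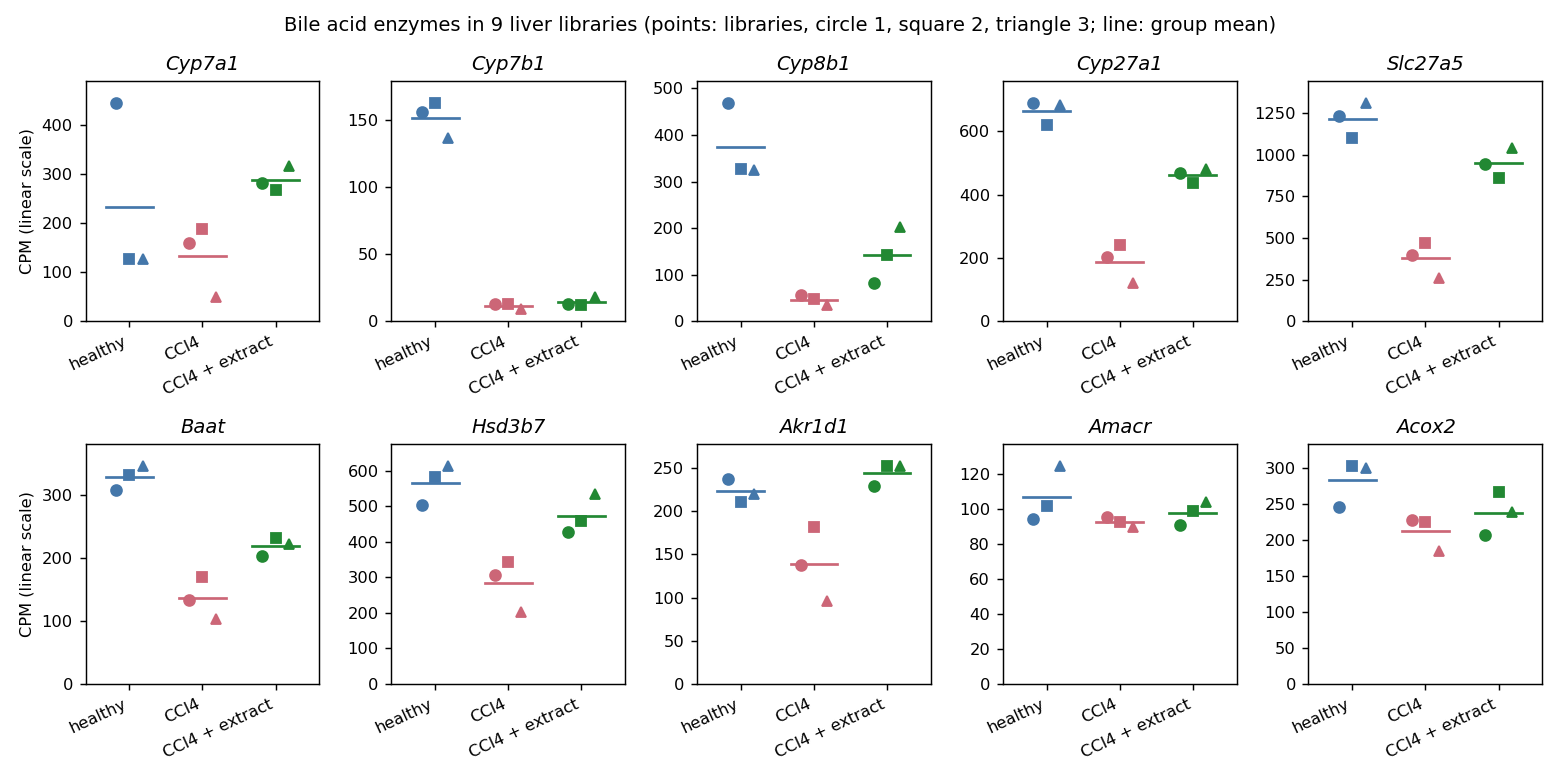
Level of each enzyme in the 9 liver libraries, in CPM on linear axes that start at 0, by group, with the group mean as a line. Cyp7b1 sat between 137 and 163 CPM in healthy liver and stayed at or below 18.1 CPM in both CCl4 groups, while Cyp8b1, Cyp27a1 and Slc27a5 lay at intermediate levels with the extract, and healthy library 1 stood far above the other healthy libraries for Cyp7a1.

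The fall was deepest for Cyp7b1 (chromosome 3, 18071950 to 18243338, minus strand, GRCm38). Its level was 156, 163 and 137 CPM in the healthy libraries and 12.6, 13.1 and 9.08 CPM in the CCl4 libraries. The groups lay far apart, and Cyp7b1 fell by 3.72 ± 0.17 on the log2 scale (adjusted p = 1.7e-08, limma). Cyp8b1 (chromosome 9, 121914356 to 121916305, minus strand) read 469, 327 and 324 CPM in healthy liver against 55.6, 47.2 and 34.0 CPM with CCl4. It fell by 3.04 ± 0.28 (adjusted p = 4e-06), again with no overlap.

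Cyp27a1 (chromosome 1, 74713574 to 74737892, plus strand), which opens the alternative route, stood at 690, 620 and 683 CPM in healthy liver and at 202, 241 and 121 CPM with CCl4. The 3 CCl4 libraries all lay under the healthy ones, with library 3 lowest, and Cyp27a1 fell by 1.88 ± 0.20 (adjusted p = 1.1e-05). The conjugation pair fell too. Slc27a5, the bile acyl-CoA synthetase gene (chromosome 7, 12988346 to 12998192, minus strand), went from 1230, 1100 and 1310 CPM to 398, 472 and 261 CPM, a log2 change of -1.72 ± 0.19 (adjusted p = 1.5e-05). Baat, the gene of the amino acid N-acyltransferase (chromosome 4, 49489422 to 49506557, minus strand), went from 308, 331 and 346 CPM to 133, 170 and 103 CPM, a log2 change of -1.31 ± 0.15 (adjusted p = 2.3e-05). For both genes each CCl4 library was below each healthy library.

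The ring enzymes fell by less. Hsd3b7 (chromosome 7, 127800604 to 127803802, plus strand) read 502, 583 and 614 CPM in healthy liver and 305, 343 and 201 CPM with CCl4, and fell by 1.03 ± 0.18 (adjusted p = 0.00046). Its value carries a limit, because the annotated gene overlaps Gm49388 on the same strand and 9430064I24Rik on the other, and the rule by which such reads were assigned is not given here. Akr1d1, the 5-beta-reductase gene (chromosome 6, 37530173 to 37568815, plus strand), read 238, 211 and 220 CPM against 138, 182 and 96.5 CPM and fell by 0.73 ± 0.18 (adjusted p = 0.0044). Scaling to library size alone, without the authors' factors, moved the median change of all genes in this comparison to 0.38 on the log2 scale. Under it Akr1d1 stood at -0.35 (adjusted p = 0.068) and Acox2 at -0.03 (adjusted p = 0.84), while the other 6 genes still fell.

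The peroxisomal genes and Cyp7a1 differed least from healthy liver or varied most. Acox2, the branched-chain acyl-CoA oxidase gene (chromosome 14, 8225511 to 8259353, minus strand), read 245, 303 and 299 CPM in healthy liver and 228, 224 and 184 CPM with CCl4. It fell by 0.41 ± 0.13 (adjusted p = 0.019), a call that was lost without CCl4 library 3 (-0.31, adjusted p = 0.067), healthy library 2 (-0.36, adjusted p = 0.062) or healthy library 3 (-0.37, adjusted p = 0.052). Amacr, the racemase gene (chromosome 15, 10981756 to 10996626, plus strand), read 94.5, 102 and 125 CPM against 95.3, 92.7 and 90.1 CPM, and its difference of -0.20 ± 0.11 did not pass (adjusted p = 0.14).

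Cyp7a1 (chromosome 4, 6265612 to 6275633, minus strand) read 446, 128 and 127 CPM in healthy liver and 160, 188 and 48.7 CPM with CCl4. These groups overlapped, and the difference of -0.77 ± 0.51 did not pass (adjusted p = 0.22). Without healthy library 1 it was -0.17 (adjusted p = 0.77), and without CCl4 library 3 it was -0.16 (adjusted p = 0.78). Healthy library 1 also had the highest level of the clock output gene Dbp, which like Per3 was chosen after the values had been seen, at 42.4 CPM against 5.72 and 12.6 CPM, and of the clock gene Per3, at 24.8 against 6.47 and 6.51 CPM. Its Nr0b2 level was the lowest of the healthy libraries, at 19.0 against 36.2 and 40.4 CPM. Dbp also lay below every healthy library in each library of the CCl4 groups. It read 0.942, 1.49 and 1.71 CPM with CCl4 and 2.49, 3.06 and 1.43 CPM with CCl4 and extract. The part of these differences in the levels of Cyp7a1 and the other enzymes was not tested, and the labels give no time of day.

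RefSeq's table for GRCm38.p6 held promoters of 5 of the 10 genes, Cyp8b1, Cyp27a1, Akr1d1, Hsd3b7 and Acox2, and those of 3 genes that fell with CCl4 and were higher with the extract are shown here. Hsd3b7 changed in the same way, but its promoter, which held none of the motifs below, is not shown. Each run is the 250 bases before the start, 5′ to 3′ on the gene's strand, at chr9:121916306-121916555 (minus strand) for Cyp8b1, chr6:37529923-37530172 (plus strand) for Akr1d1 and chr1:74713285-74713534 (plus strand) for Cyp27a1. Capitals mark matches, on either strand, to AAAGTCC, the core of sites bound by the hepatocyte receptor HNF4, to AGGTCA, the half-site of many nuclear receptors, or to GTTAAT, an HNF1 half-site.
Cyp8b1: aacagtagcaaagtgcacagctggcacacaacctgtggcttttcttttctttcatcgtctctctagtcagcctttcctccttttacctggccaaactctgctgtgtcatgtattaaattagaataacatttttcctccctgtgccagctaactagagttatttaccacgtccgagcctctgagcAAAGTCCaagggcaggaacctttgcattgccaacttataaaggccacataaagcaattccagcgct
Akr1d1: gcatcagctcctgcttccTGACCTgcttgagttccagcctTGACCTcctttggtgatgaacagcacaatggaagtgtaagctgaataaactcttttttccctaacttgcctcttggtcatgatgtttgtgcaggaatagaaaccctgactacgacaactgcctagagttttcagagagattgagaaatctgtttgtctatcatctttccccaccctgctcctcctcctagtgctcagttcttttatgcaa
Cyp27a1: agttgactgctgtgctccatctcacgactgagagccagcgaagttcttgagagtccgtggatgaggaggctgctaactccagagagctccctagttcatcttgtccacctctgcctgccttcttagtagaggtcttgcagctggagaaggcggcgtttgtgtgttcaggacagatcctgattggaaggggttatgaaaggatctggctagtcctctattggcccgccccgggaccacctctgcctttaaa
Cyp8b1 held AAAGTCC once, from 66 to 60 bases before the start, and Akr1d1 held AGGTCA in reverse, as TGACCT, from 232 to 227 and from 210 to 205 bases before it. The Cyp27a1 window held none of these letters, nor did those of Hsd3b7 and Acox2. Of all 32851 promoter windows of this length in the table, 3.58% held AAAGTCC, 14.0% AGGTCA and 6.43% GTTAAT. None of the motifs overlapped another in the windows shown, and a match describes the letters only.

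Genes around the pathway were counted from lists of its other enzymes, its regulators and its transporters. Of 15 other enzymes and cofactors of bile acid synthesis, 10 fell and 3 rose, with a median of -0.50. They included Fdx1, the ferredoxin that passes electrons to mitochondrial P450 enzymes such as Cyp27a1 (-1.04 ± 0.11, adjusted p = 1e-05, limma), and Slc27a2, a very-long-chain acyl-CoA synthetase (-1.39 ± 0.18, adjusted p = 4.5e-05). Acnat2, a peroxisomal acyltransferase related to Baat, rose by 1.28 ± 0.14 (adjusted p = 1.7e-05), though reads may be shared with its close copy Acnat1.

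Among 13 regulators tested 12 fell and none rose. Hnf4a, the hepatocyte receptor known to drive Cyp7a1 and Cyp8b1, went from 965, 1070 and 1050 CPM to 503, 534 and 411 CPM, a log2 change of -1.10 ± 0.12 (adjusted p = 1.4e-05). Klb (-1.25 ± 0.16, adjusted p = 6.6e-05) and Fgfr4 (-0.73 ± 0.09, adjusted p = 2.6e-05), which together form the hepatocyte receptor for Fgf15, fell as well. The genes of the feedback brake fell too. Nr1h4 changed by -0.79 ± 0.11 (adjusted p = 8.2e-05) and Nr0b2 by -0.74 ± 0.23 (adjusted p = 0.016). The Nr0b2 groups overlapped, and its call was lost without healthy library 2 (-0.61, adjusted p = 0.061) or 3 (-0.53, adjusted p = 0.066) and when scaled to library size alone (-0.36, adjusted p = 0.19). Fgf15 had no read in any liver library. Of 11 bile acid transporters 6 fell and 3 rose, among them Slco1a1, an organic anion uptake carrier (-5.26 ± 0.30, adjusted p = 8.7e-08), Abcc3, a basolateral exporter (-1.27 ± 0.16, adjusted p = 4.4e-05), and Abcc4, another such exporter, which rose by 2.32 ± 0.28 (adjusted p = 3.5e-05).

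With the extract, CCl4 livers had more RNA of 6 of the 10 enzymes than CCl4 livers without it, and less of none. Of all genes tested 9.33% were higher, 9.76% were lower and 19.1% differed in either direction. The median of the 10 log2 changes was 0.82, beside -0.003 over all genes. This comparison uses the same CCl4 libraries as the one with healthy liver, and CCl4 library 3, the lowest of its group for each of the 10 enzymes, enters both. Without that library the same 6 genes passed, with log2 changes from 0.54 for Baat and Hsd3b7 to 1.38 for Cyp8b1.

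Cyp8b1 rose most among the genes that passed. It read 82.7, 142 and 202 CPM with the extract, each above the CCl4 range of 34.0 to 55.6 CPM, a log2 change of 1.57 ± 0.28 (adjusted p = 0.0027, limma). Slc27a5 read 943, 860 and 1040 CPM against 261 to 472 CPM and rose by 1.37 ± 0.19 (adjusted p = 0.00054). For Cyp27a1 the extract libraries read 467, 436 and 482 CPM against 121 to 241 CPM, and it rose by 1.36 ± 0.20 (adjusted p = 0.00079). Smaller rises were those of Akr1d1, at 229 to 253 CPM with the extract (0.86 ± 0.18, adjusted p = 0.0061), Hsd3b7, at 427 to 533 CPM (0.77 ± 0.18, adjusted p = 0.011), and Baat, at 203 to 231 CPM (0.72 ± 0.15, adjusted p = 0.0067). In all 6 genes every extract library lay above every CCl4 library, which is likely for genes picked by a small p and adds no separate support. The call for Hsd3b7 was lost without extract library 3 (0.68, adjusted p = 0.059).

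The other 4 genes did not pass. Cyp7a1 read 283, 269 and 316 CPM with the extract, above all CCl4 libraries, and its difference of 1.34 ± 0.51 missed the threshold (adjusted p = 0.088). It passed when CCl4 library 2 was left out (1.71, adjusted p = 0.048) and when only these groups were fitted (adjusted p = 0.049). Cyp7b1 read 13.1, 12.4 and 18.1 CPM, overlapping the CCl4 libraries (0.32 ± 0.17, adjusted p = 0.21). Amacr (0.08 ± 0.11, adjusted p = 0.67) and Acox2 (0.16 ± 0.13, adjusted p = 0.43) overlapped as well.

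Of the hepatocyte markers 6 of 17 rose in this comparison and 0 fell, their median was 0.16, and they summed to 164000 to 183000 CPM. Of the stellate cell and myofibroblast markers 4 of 10 fell, to sums of 764 to 942 CPM, as did 4 of 9 of bile duct cells and progenitors, to 173 to 207 CPM, and 3 of 10 of macrophages. Their part in the rise of the enzymes was not tested. Among the other enzymes 9 of 15 rose and none fell, with Cyp39a1, the 24-hydroxycholesterol 7-alpha-hydroxylase, at 0.62 ± 0.10 (adjusted p = 0.0011), Fdx1 at 0.59 ± 0.11 (adjusted p = 0.003) and Slc27a2 at 0.88 ± 0.18 (adjusted p = 0.0053). Of the regulators 4 of 13 rose. Named by the smallest p, they were Fgfr4 (0.75 ± 0.09, adjusted p = 0.00019) and the xenobiotic receptors Nr1i2 (0.61 ± 0.11, adjusted p = 0.0031) and Nr1i3 (1.33 ± 0.25, adjusted p = 0.004). Nr1h4 at 0.32 ± 0.11 (adjusted p = 0.056) and Nr0b2 at -0.13 ± 0.23 (adjusted p = 0.75) did not pass, though Nr1h4 did without extract library 3 (0.41, adjusted p = 0.045) or CCl4 library 2 (0.40, adjusted p = 0.03). Of the transporters 5 of 11 rose, including Abcb11, the canalicular bile salt export pump (1.20 ± 0.20, adjusted p = 0.0019), and Slc10a1, the sodium-dependent bile acid uptake carrier (0.84 ± 0.19, adjusted p = 0.011).

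Against healthy liver, the extract-treated CCl4 livers were still lower in 3 of the 10 enzymes and higher in none, where 13.6% of all genes were lower, 21.1% were higher and 34.8% differed either way. Cyp7b1 stood at -3.40 ± 0.17 on the log2 scale (adjusted p = 1.4e-07, limma), Cyp8b1 stood at -1.46 ± 0.28 (adjusted p = 0.002) and Baat at -0.59 ± 0.15 (adjusted p = 0.011). Cyp27a1 (-0.52 ± 0.20, adjusted p = 0.058) and Slc27a5 (-0.36 ± 0.19, adjusted p = 0.16) did not pass, although their libraries did not overlap with the healthy ones. A fit of these groups alone called both, with adjusted p = 0.0022 and adjusted p = 0.036, so that 5 genes were then lower. Akr1d1 stood at 0.13 ± 0.18 (adjusted p = 0.59) and Hsd3b7 at -0.26 ± 0.18 (adjusted p = 0.27), each overlapping healthy liver. Cyp7a1 stood at 0.58 ± 0.51 (adjusted p = 0.40), with healthy library 1 above and the others below the extract range.

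**Figure D2:**
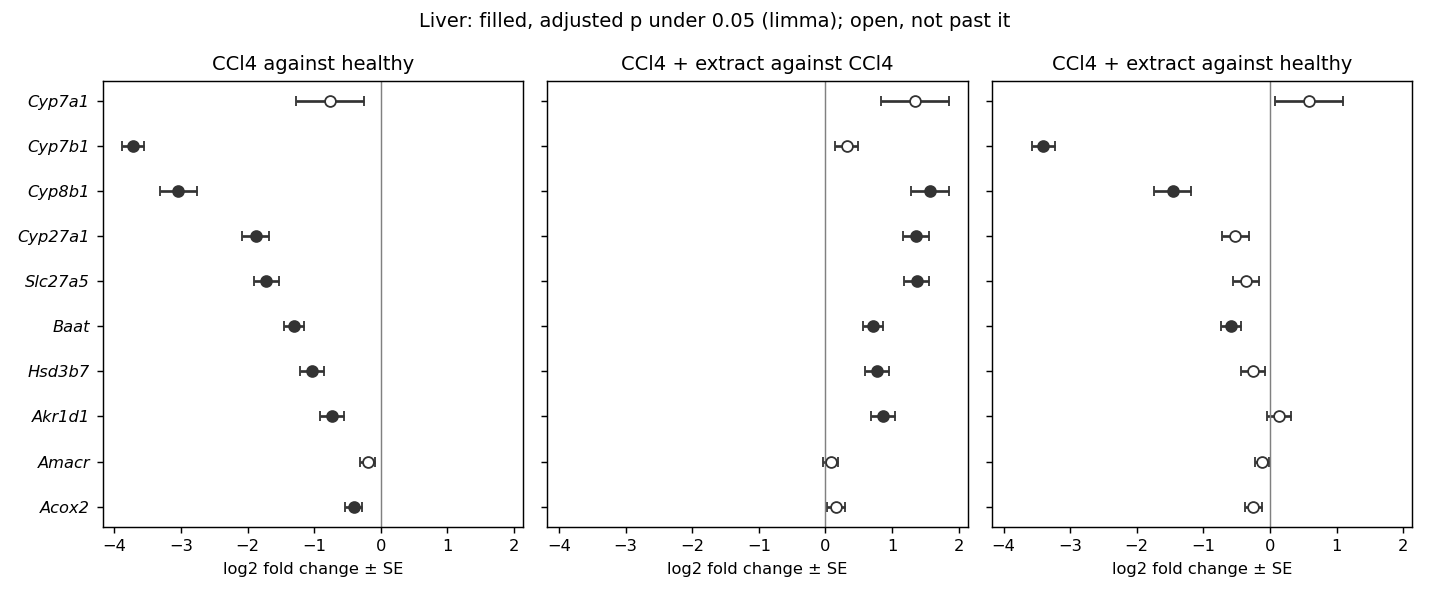
Log2 fold change ± SE (limma) of each enzyme in the 3 comparisons of the liver groups, which share libraries. Filled points passed the threshold: 8 genes to the left of 0 for CCl4 against healthy liver, 6 to the right for extract against CCl4 liver, and 3 to the left for extract against healthy liver.

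The balance between enzymes was followed for 2 pairs of genes. The difference of log2 CPM between a pair of genes in a library does not depend on the scaling of that library, and the same gene lengths enter it in every group. Cyp7a1 minus Cyp7b1, the classic against the alternative 7-alpha-hydroxylase, was 1.52, -0.35 and -0.11 in healthy liver. It was 3.66, 3.84 and 2.42 with CCl4 and 4.44, 4.43 and 4.12 with the extract, so that the groups did not overlap. The mean shifts were 2.95 for CCl4 against healthy, 1.02 for extract against CCl4 and 3.98 for extract against healthy liver. Each had an exact two-sided permutation p = 0.1, the smallest that 3 against 3 libraries allow, and 0.12 after adjustment over the 6 tests of this kind.

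Cyp8b1 minus Cyp7a1, which sets the 12-alpha-hydroxylase against the first enzyme of the route, was 0.07, 1.36 and 1.35 in healthy liver. With CCl4 it was -1.52, -1.99 and -0.52, and with the extract -1.78, -0.92 and -0.64. The groups with CCl4 both lay under healthy liver, with mean shifts of -2.27 and -2.04 (exact permutation p = 0.1 each, adjusted 0.12). They overlapped each other, and their difference of 0.23 had an exact permutation p = 0.8 and turned sign without extract library 3 or without CCl4 library 2.

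**Figure D3:**
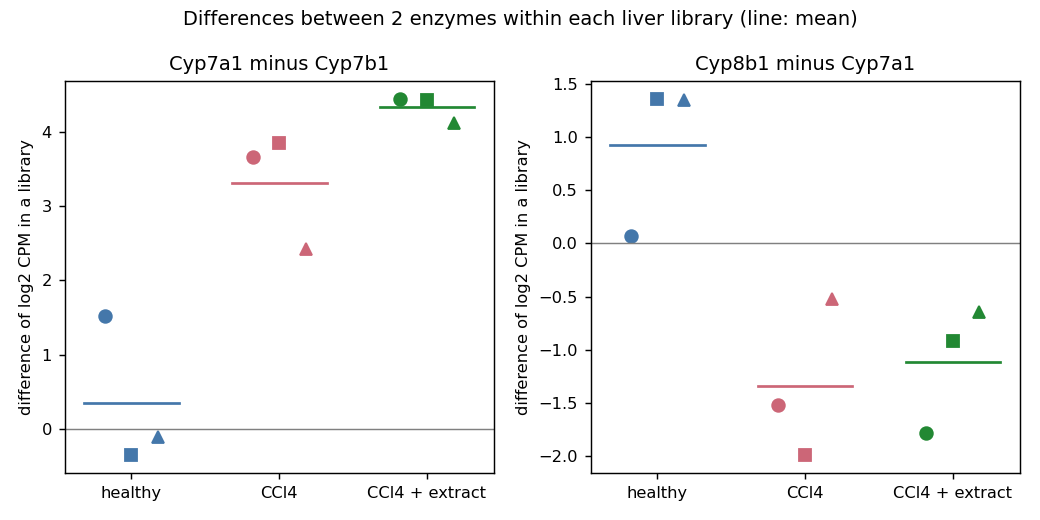
Difference of log2 CPM between a pair of enzymes in each of the 9 liver libraries, by group, with the group mean as a line. Cyp7a1 minus Cyp7b1 ran from -0.35 to 1.52 in healthy liver and from 2.42 to 4.44 in the CCl4 groups, and Cyp8b1 minus Cyp7a1 lay above 0 in healthy liver and below 0 in both CCl4 groups.

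Among 8082 other liver genes that averaged 10 CPM or more, those whose centred log2 values lay nearest to the mean profile of the 10 enzymes over the 9 libraries were Selenoo, Clmn, Dpyd, Slc10a1 and Hpd. Their root mean square distances were 0.095, 0.104, 0.106, 0.11 and 0.117 on the log2 scale. Slc10a1, the nearest bile acid gene, averaged 798 CPM in healthy, 311 CPM in CCl4 and 542 CPM in extract-treated liver.

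The organoids had few or no reads of 5 of the 10 enzymes. Over their 18 libraries Cyp7a1 had no read, which allows up to 0.0695 CPM in a library at a floor of 3 reads, against 48.7 to 446 CPM in liver. Cyp8b1 had 1 read in all, Cyp7b1 30 reads, of which 20 came from untreated library 3, Slc27a5 34 reads and Akr1d1 56 reads. These floors cover counting error only, and levels set beside liver come from tables that were normalized separately. Hsd3b7, Amacr and Acox2 were read in all 18 libraries. Acox2 held 49.0 to 225 CPM, Hsd3b7 39.8 to 167 CPM and Amacr 7.78 to 26.5 CPM. In the table of mineral oil and CCl4 mice 5 of the 10 enzymes had enough reads for a test, and 3 did in that of TGF-β1.

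In organoids of CCl4 mice, Cyp27a1, Baat, Amacr and Hsd3b7 were higher and Acox2 was lower than in organoids of mineral oil mice. All 5 tested genes thus passed, where 40.2% of 14836 genes did, 20.4% higher and 19.8% lower. The mineral oil libraries alone held too few reads of Cyp27a1 and Baat for a test, so both entered it through the groups in which they were high, and the count supports nothing by itself. Cyp27a1 read 12.7, 0.412 and 0.107 CPM in the mineral oil libraries and 31.4, 52.4 and 29.8 CPM in those of CCl4 mice. The mineral oil libraries differed more among themselves than the CCl4 libraries, and Cyp27a1 rose by 5.28 ± 1.37 (adjusted p = 0.017, limma). Baat read 1.91, 0.13 and 0.128 CPM against 6.51, 6.0 and 4.44 CPM and rose by 3.88 ± 0.85 (adjusted p = 0.0082).

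Amacr read 8.11, 9.49 and 8.30 CPM against 26.5, 18.7 and 20.5 CPM, and rose by 1.33 ± 0.14 (adjusted p = 0.00027). Hsd3b7 read 39.8, 47.2 and 47.1 CPM against 55.7, 58.6 and 64.8 CPM, and rose by 0.42 ± 0.09 (adjusted p = 0.0095). Acox2 went the other way, from 101, 206 and 203 CPM to 49.0, 54.6 and 60.3 CPM, and fell by 1.57 ± 0.26 (adjusted p = 0.0022). For each of these 3 genes the groups did not overlap.

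Mineral oil library 1 lay nearer to the CCl4 libraries than the other mineral oil libraries did for Cyp27a1, Baat and Acox2, but not for Amacr or Hsd3b7. The summed level of 8 intestinal epithelium markers, among them Vil1, Cdx2 and Alpi, ran the same way. It was 6910 CPM in mineral oil library 1, 2260 and 1790 CPM in libraries 2 and 3, 6860 to 9000 CPM in organoids of CCl4 mice and 6520 to 6630 CPM with the extract. Of these 8 markers 6 rose with CCl4 and none fell. In mean level 6 exceeded 1 CPM with mineral oil and 8 with CCl4. Some may have entered the test through the groups in which they were high, so this count supports nothing by itself. Hepatocyte markers moved as well: 6 of the 12 tested were higher and 0 lower (median log2 change 1.63). Their sum was 3060, 783 and 782 CPM in the mineral oil libraries against 2840 to 6390 CPM, with no read of Ahsg in the CCl4 libraries. The listed markers did not run alike in mineral oil library 1, which had the highest sum of its group but the lowest Alb. Apoa1, also on the list, read 266, 2.84 and 0.728 CPM with mineral oil against 130, 1030 and 378 CPM with CCl4. Alb read 0.0399, 1.45 and 1.37 CPM with mineral oil against 155, 69.4 and 61.2 CPM with CCl4. It entered the test through the groups in which it was high, as others of the 12 may have, so their count and median support nothing by themselves. Of the 10 markers of bile duct cells and progenitors 6 fell and none rose, from sums of 9910 to 11400 CPM to 7690 to 8290 CPM. The part of these cell types in the enzyme levels was not tested. Without mineral oil library 1 the log2 change of Cyp27a1 was 7.15 (adjusted p = 3.2e-06), that of Baat 5.06 (adjusted p = 6.9e-07), that of Acox2 -1.91 (adjusted p = 2.3e-06), that of Amacr 1.29 (adjusted p = 8.7e-05) and that of Hsd3b7 0.34 (adjusted p = 0.0061). Without mineral oil library 3 the change of Cyp27a1 was 3.93 (adjusted p = 0.042) and that of Baat 3.29 (adjusted p = 0.028). The call for Cyp27a1 was lost without CCl4 library 2 (5.02, adjusted p = 0.053) or mineral oil library 2 (4.75, adjusted p = 0.06), and when only these groups were fitted (adjusted p = 0.055).

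**Figure D4:**
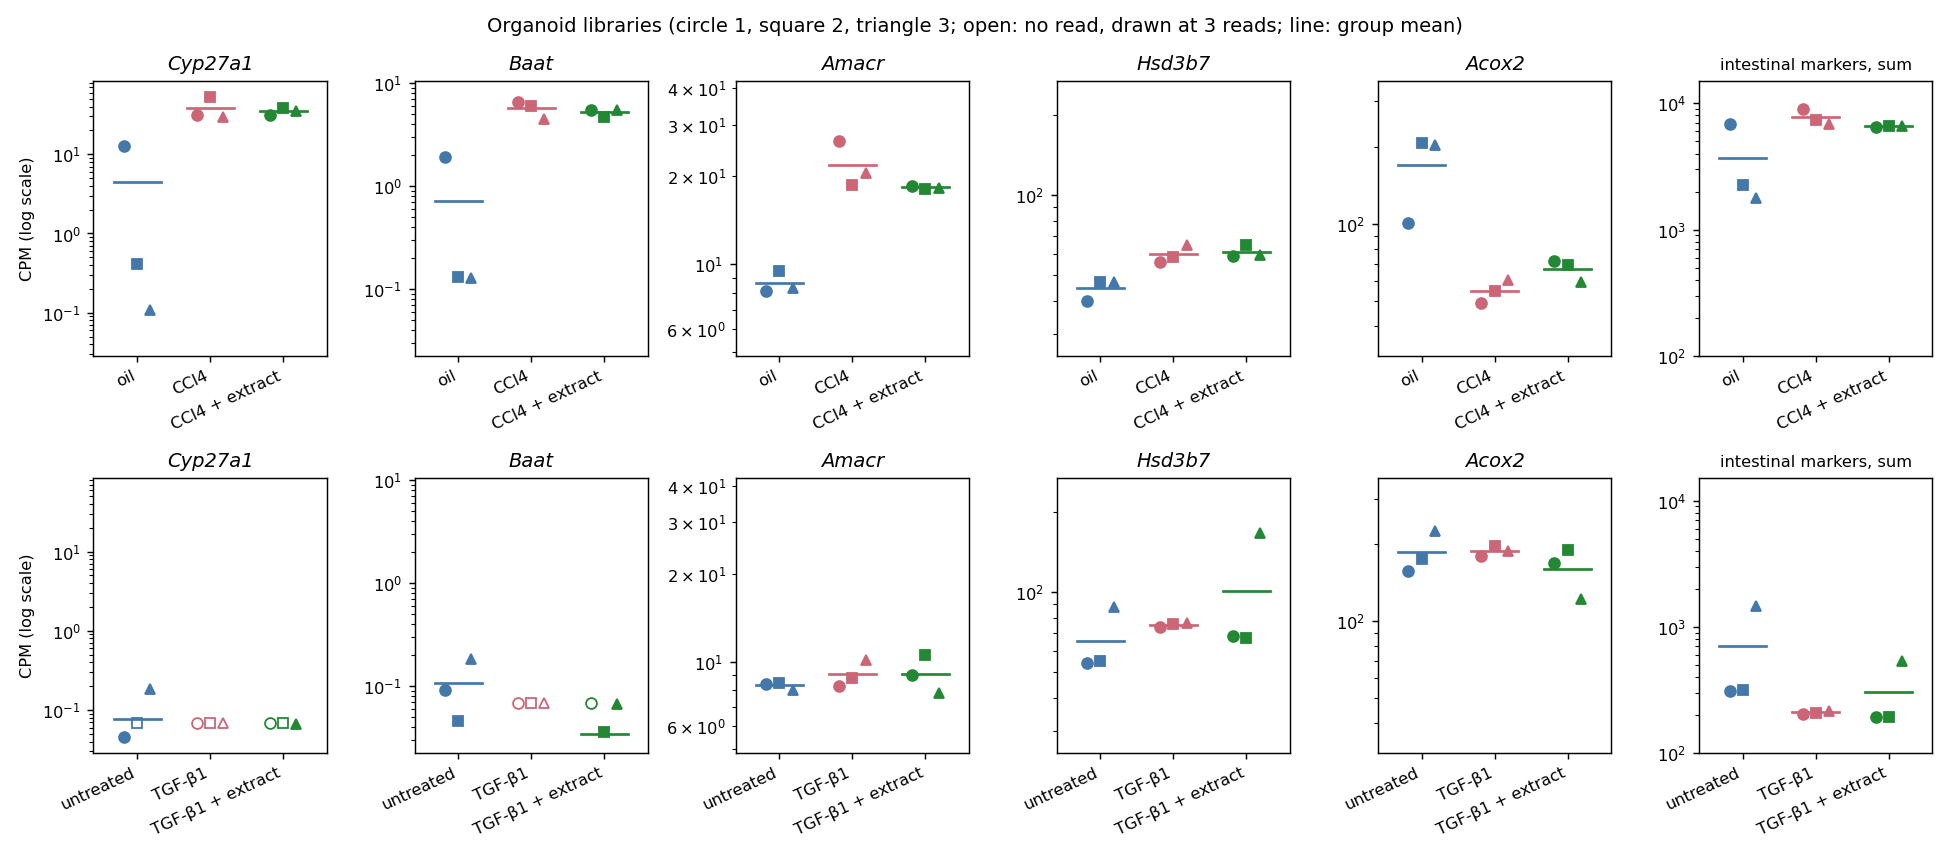
Levels of 5 enzymes and the summed level of 8 intestinal epithelium markers in the organoid libraries, in CPM on log axes, with the table of mineral oil and CCl4 mice above and the TGF-β1 table below. Open points have no read and are drawn at the floor of 3 reads, and lines are group means. Mineral oil library 1 sits at 12.7 CPM for Cyp27a1, between 0.412 CPM or less in its group and 29.8 CPM or more in the CCl4 groups.

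The listed regulators did not move in one direction in these organoids. Of 13 tested 7 rose and 3 fell with CCl4. These are not the same 13 as in liver, since Nr0b2 was tested only there and Fgf15 only in organoids. Besides Fgf15, others may have entered the test through the groups in which they were high, so the count supports nothing by itself. Nr1h4 rose by 2.40 ± 0.53 (adjusted p = 0.0083), from 99.8, 25.8 and 20.4 CPM to 270, 178 and 162 CPM, and by 3.11 without mineral oil library 1. Nr5a2, a receptor known to drive Cyp7a1 and Cyp8b1, rose by 4.49 ± 0.58 (adjusted p = 0.00074) and by 5.26 without that library, and Nr1h3, an oxysterol receptor, rose by 2.36 ± 0.25 (adjusted p = 0.00029). Klb fell by 2.97 ± 0.33 (adjusted p = 0.00035). Fgf15, the bile acid hormone of the ileum, read 2.43, 2.91 and 1.28 CPM in mineral oil organoids and 0.166, 0 and 0.107 CPM in those of CCl4 mice, and fell by 4.33 ± 0.69 (adjusted p = 0.002), with a log2 change of -3.62 without CCl4 library 2, having entered the test through the mineral oil libraries. Nr0b2 had too few reads for a test, at most 0.157 CPM.

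Of 13 other enzymes tested 4 rose and none fell, led by the peroxisomal Hsd17b4 (0.74 ± 0.08, adjusted p = 0.00027). Acnat1, a near copy of Acnat2 that may share its reads, followed at 1.65 ± 0.25 (adjusted p = 0.0017). Abcd3, a peroxisomal importer of bile acid precursors, was next at 0.89 ± 0.22 (adjusted p = 0.014), a call lost without CCl4 library 1 (0.77, adjusted p = 0.052) or mineral oil library 2 (0.80, adjusted p = 0.054), and with only these groups fitted (adjusted p = 0.052). Of 10 transporters 4 rose and 1 fell, and Slc51a, a subunit of the basolateral bile acid exporter of ileum and bile duct, rose most, by 7.79 ± 1.66 (adjusted p = 0.0073). It read 20.6, 0.369 and 0.0428 CPM with mineral oil and 229, 197 and 166 CPM with CCl4, and its change was 10.06 without mineral oil library 1 and 6.08 without library 3. Its partner Slc51b rose by 5.74 ± 1.56 (adjusted p = 0.02), which was lost when CCl4 library 1 or 2 or mineral oil library 2 or 3 was left out (4.48 to 5.66, adjusted p = 0.057 to 0.071) and with only these groups fitted (adjusted p = 0.062), and which was 7.94 without mineral oil library 1. Abcb4, the phospholipid floppase of the canaliculus, rose by 1.59 ± 0.37 (adjusted p = 0.011), at no more than 0.891 CPM. Like Cyp27a1 and Baat, these 3 transporters entered the test through the groups in which they were high.

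Adding the extract to organoids of CCl4 mice moved none of the 5 tested enzymes past the threshold, and 0.0% of all genes passed in limma, with 271 genes and none of the 5 at an unadjusted p under 0.05. With limma-voom on the reads 0 genes passed as well. Cyp27a1 read 31.5, 38.2 and 34.7 CPM with the extract (-0.08 ± 1.37, adjusted p = 1.0) and Acox2 read 71.7, 69.0 and 59.2 CPM (0.29 ± 0.26, adjusted p = 1.0), both overlapping the organoids without it. Amacr read 18.6, 18.1 and 18.3 CPM, each below the 3 libraries without extract, at -0.25 ± 0.14 (adjusted p = 1.0). The SE of Cyp27a1 comes from a spread shared by the 3 groups, including the mineral oil libraries, at 12.7, 0.412 and 0.107 CPM. By this SE the test could miss changes of several fold in either direction. The groups compared varied less, and the log2 change of Cyp27a1 ranged from -0.23 to 0.18 with 1 of their libraries left out.

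Against mineral oil organoids, those of CCl4 mice with the extract differed in all 5 tested genes, where 34.4% of all genes differed. Cyp27a1 and Baat again entered through the groups in which they were high, so nothing is read from that count. Of the hepatocyte markers 8 of 12 were higher, of the intestinal ones 5 of 8, and of those of bile duct cells and progenitors 6 of 10 were lower. Alb, and possibly more of the 12 hepatocyte markers and some of the 8 intestinal ones, entered through groups with high levels too, so these counts are limited likewise. The log2 changes were 5.20 ± 1.37 for Cyp27a1 (adjusted p = 0.021), 3.77 ± 0.85 for Baat (adjusted p = 0.011) and 1.08 ± 0.14 for Amacr (adjusted p = 0.00081). Those of Hsd3b7 and Acox2 were 0.45 ± 0.09 (adjusted p = 0.0079) and -1.28 ± 0.26 (adjusted p = 0.0066). This comparison shares its mineral oil libraries with the one above. The Cyp27a1 call was lost when any extract library was left out, or mineral oil library 2 or 3 (3.86 to 5.27, adjusted p = 0.051 to 0.072), while without mineral oil library 1 it was 7.08 (adjusted p = 4e-06).

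Liver and organoids were set against each other for the 5 genes by testing the difference of the CCl4 effects, liver minus organoid, which differed for 54.2% of 13116 genes. The liver controls are labelled only as healthy mice, without saying whether they got mineral oil. The organoid controls came from mice given mineral oil. As above, Cyp27a1 and Baat entered the organoid fit through the groups in which they were high, so their differences are limited in the same way. Cyp27a1 fell in liver and rose in organoids, a difference of -7.16 ± 1.44 (adjusted p = 0.00071, limma), and Baat did so by -5.19 ± 0.89 (adjusted p = 0.00018). Hsd3b7 did the same with smaller changes, a difference of -1.45 ± 0.22 (adjusted p = 7e-05). Amacr rose only in organoids by its own test, and the effects differed by -1.53 ± 0.17 (adjusted p = 4.1e-06). Acox2 fell in both, and more in organoids, by 1.16 ± 0.30 (adjusted p = 0.0046). Its fall in liver was not stable, as its limma call was lost with library size alone (-0.03, adjusted p = 0.84) and without some single libraries. The effects also differed for 11 of 12 hepatocyte markers, all lower in this difference, and for 6 of 9 markers of bile duct cells and progenitors, all higher, and their part was not tested. Alb, and possibly more of the 12 hepatocyte markers, entered the organoid fit through groups with high levels, so their count is limited likewise. For the extract effects none of the 5 differences passed, where 7.08% of all genes did. That of Hsd3b7 was 0.74 ± 0.22 (adjusted p = 0.06), at an unadjusted p of 0.0048, and passed without liver CCl4 library 2 (0.89, adjusted p = 0.02). Those of Cyp27a1 (1.43 ± 1.44) and Baat (0.83 ± 0.89) had an SE from a spread shared with the mineral oil organoids, which this contrast does not use. Their tests could therefore miss differences of this size.

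**Figure D5:**
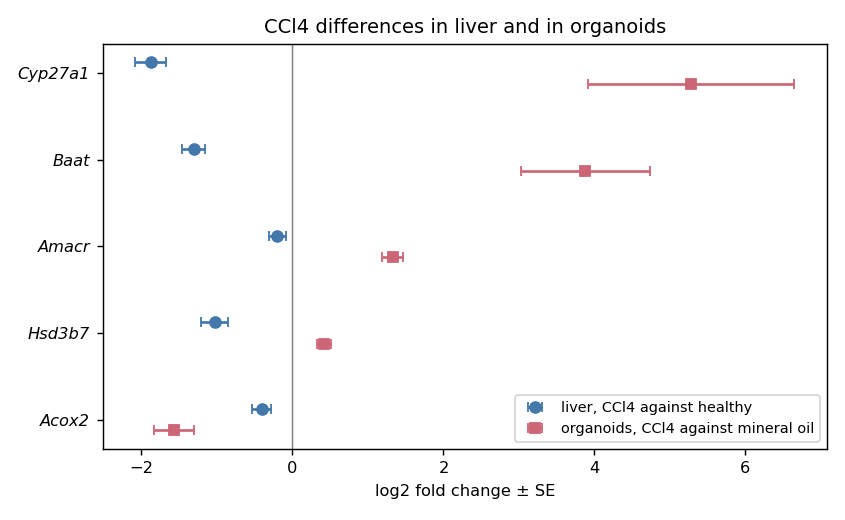
Log2 fold change ± SE of the 5 enzymes that could be tested in both tables, for CCl4 against healthy liver (circles) and for organoids of CCl4 against mineral oil mice (squares). Cyp27a1 lies at -1.88 in liver and 5.28 in organoids, and Acox2 is the gene with both values below 0.

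In the TGF-β1 table Hsd3b7, Amacr and Acox2 could be tested, and none passed in any of the 3 comparisons. For TGF-β1 against untreated organoids 0.0212% of 14125 genes passed, for TGF-β1 plus extract against TGF-β1 0.0%, and for TGF-β1 plus extract against untreated 0.0142%. At an unadjusted p under 0.05 these comparisons held 1747, 272 and 1303 genes and none of the 3 enzymes, and limma-voom called none of the 3 either. Hsd3b7 read 54.3, 55.1 and 87.6 CPM untreated, 73.6, 76.0 and 76.4 CPM with TGF-β1, and 68.3, 67.1 and 167 CPM with TGF-β1 and extract. The highest values of the first and last groups were their number 3 libraries, and the groups overlapped. Acox2 read 157, 174 and 225 CPM, 180, 196 and 187 CPM, and 168, 189 and 122 CPM in the same order, again with the number 3 libraries at the ends.

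Untreated library 3 and TGF-β1 plus extract library 3 stood apart from the other 7 and had more of the intestinal markers, 1470 against 312 and 317 CPM and 531 against 193 and 193 CPM. With both left out, an alternative added after the data had been seen, 3310 genes differed between TGF-β1 and untreated organoids. Hsd3b7 was then higher by 0.46 (adjusted p = 2.2e-05, limma) and Acox2 by 0.18 (adjusted p = 0.046) with TGF-β1, on 2 untreated libraries whose spread was taken from the rest of the table. Between TGF-β1 plus extract and untreated organoids 1941 genes then differed, Hsd3b7 among them (0.31, adjusted p = 0.0013). Amacr, at 7.78 to 10.5 CPM in all 9 libraries, did not pass in either case. Cyp27a1 and Baat, which were well read in organoids of CCl4 mice, had at most 10 reads in any library of this table.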

How the data were processed

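RNA was sequenced from 1.2 µg of total RNA per library, with a stranded TruSeq mRNA kit, per the labels' protocols. Per the submitters' processing notes, reads were placed on mm10. No aligner, counter or annotation is named in the sources used here. As deposited by the authors, the values are log2 CPM with a prior count of 2, scaled by effective library sizes (factors 0.854 to 1.217). Whole reads were recovered from them, 100% within 0.05 of a whole number.

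Genes entered the tests when 3 libraries held the CPM of 10 reads in a median library and the table held 15 reads. Each table was fitted with limma 3.58.1 (R 4.3.3, lmFit and eBayes with trend) on the log2 values, with a mean for each of 3 groups, two-sided, adjusted by Benjamini-Hochberg over all genes tested. Differences between tables were fitted in one model. Exact permutation tests used Python 3.11.15. The code was tested on simulated data.

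The 10 enzymes, the gene lists and the cell type markers were chosen with earlier results of these data known. Named besides the enzymes are, for each list and comparison, at most 3 genes that passed with the smallest p, Nr1h4, Nr0b2 and Fgf15 always, and the 5 nearest liver profiles.

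Replicate numbers were checked as a pairing by the correlation of same-numbered deviations from group means. These exceeded 0.1 for all 3 numbers only for TGF-β1 plus extract against untreated organoids (0.531 to 0.717), where both number 3 libraries stand apart. The blocked fit changed no call of an enzyme.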

Additional observations from a re-analysis of the deposited data

Results flagged for a closer look

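CCl4 effects differed between liver and organoids for the 5 enzymes that could be tested in both, by a test of the difference itself (limma, 3 libraries a group, adjusted over 13116 genes, of which 54.2% differed). The log2 differences, liver minus organoid, were -7.16 for Cyp27a1, -5.19 for Baat, -1.53 for Amacr, -1.45 for Hsd3b7 and 1.16 for Acox2. Organoid mineral oil library 1 stood apart in its group, and without it these values were -9.03, -6.36, -1.48, -1.37 and 1.5, in the same order and with the same calls. Without mineral oil library 3 the difference was -5.82 for Cyp27a1 and -4.59 for Baat, the smallest with any library left out. The organoid controls came from mice given mineral oil, and the labels do not say whether the healthy mice of the liver controls got it. Tissue and a possible difference in control treatment therefore cannot be told apart here. Cyp27a1 and Baat entered the organoid test through the groups in which they were high.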

How the results depend on the processing

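Each result was recomputed with a prior count of 0.5, library size alone, no filter on low values, limma-voom, no variance trend, only the groups compared, a replicate block, and each library left out in turn. Of the settings tried for single enzymes tested in the main fit, 868 kept direction and side of the threshold, 15 lost a call and 8 gained one, and none changed the direction of a call. Enzymes that could be tested only without a filter are not in this tally. The number of enzymes called moved from 3 to 5 for extract-treated against healthy liver when only these groups were fitted. Without a filter it moved from 5 to 9 for the difference of CCl4 effects and from 0 to 1 for that of extract effects, where it ranged from 0 to 1 with a library left out (1 without liver CCl4 library 2). The enzymes added without a filter had at most 33 reads in all organoids of mineral oil and CCl4 mice. Their differences therefore mostly repeat the change in liver and show no separate response of the organoids. With untreated library 3 and TGF-β1 plus extract library 3 both left out the number called became 2 for TGF-β1 and 1 for TGF-β1 plus extract against untreated organoids. The shift of Cyp8b1 minus Cyp7a1 for extract against CCl4 liver, 0.23, ranged from -0.09 to 0.64 with a library left out. It was -0.01 without extract library 3 and -0.09 without CCl4 library 2.

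The replicate block gave 8, 6 and 3 enzymes called in the liver comparisons and 5, 0 and 5 in organoids of CCl4 mice, the same as without it, and 0 in the TGF-β1 table. All-gene counts moved by over 1.5 times in places. For extract against CCl4 liver 2871 genes became 1452 to 1863 with 1 of 5 libraries left out. For organoids of CCl4 mice against mineral oil 5963 became 9004 without mineral oil library 1 and 3803 with only these groups, and for those with extract 5103 became 8337 without that library and 3207 to 3230 without an extract library. For the difference of extract effects 928 became 1732 with library size alone and 425 to 610 without 1 of 7 libraries. Library size alone moved the split of higher to lower genes to 7261 and 1384 for CCl4 against healthy liver, from 4314 and 3829, and to 640 and 3600 for extract against CCl4 liver, from 1403 and 1468. It also moved it to 3823 and 840 for extract-treated against healthy liver, from 3180 and 2048, to 3363 and 2114 for organoids of CCl4 mice with extract against mineral oil, from 2557 and 2546, to 4851 and 1929 for the difference of CCl4 effects, from 3527 and 3577, and to 98 and 1634 for that of extract effects, from 316 and 612. In the TGF-β1 table the 3 genes called for TGF-β1 against untreated became 0 to 55 (55 with only these groups) and the 2 for TGF-β1 plus extract against untreated 0 to 53 (53 without TGF-β1 plus extract library 3), and 3310 and 1941 with the libraries that stand apart both left out. Causes were not tested. With 3 libraries a group, differences within the spread of a gene such as Cyp7a1 were not detectable.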
